A study of Mus musculus with 22 samples.

Results

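The Schlafen family was followed through RNA-sequencing libraries of mouse inguinal white adipose tissue (IWAT), the subcutaneous fat pad that also holds mammary tissue. Its 7 members in the count table were Slfn1, Slfn2, Slfn3, Slfn4, Slfn5, Slfn8 and Slfn9, of 23420 genes. Slfn4 was chosen for its large rise beside a tumor and the other 6 because they are its paralogs, so the tumor changes of Slfn4 are described without a test. Adult female wildtype C57Bl/6 mice were lean on chow or obese on a high fat diet (HFD) for 16 weeks. E0771 breast cancer cells, a line from the same mouse strain, were placed with Matrigel and PBS in the left pad, called tumor-associated IWAT here. The right pad received Matrigel and PBS without cells and is called control IWAT. Both pads of 5 lean and 6 obese mice were collected 2 weeks later, which gave 22 libraries. Control pads thus also came from tumor-bearing mice, and the study reports larger tumors in the HFD-fed mice. The model is a transplanted cell line rather than a tumor that arose in the gland, and the study reports that the inguinal lymph node was removed, that the fat directly over the tumor was discarded and that the outermost fat was left out. Mice are named by the numbers in their labels.

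Schlafen genes are induced by interferons and by ligands of Toll-like receptors, and their products act in the growth control and quiescence of lymphocytes and myeloid cells and, for some members, in restricting viruses. The mouse proteins come in short forms (Slfn1, Slfn2), intermediate forms (Slfn3, Slfn4) and long forms that carry a helicase-like part (Slfn5, Slfn8, Slfn9). In adipose tissue the family is expected in resident and recruited immune cells as well as in stromal cells. Bulk libraries cannot tell more cells of a type from more RNA per cell.

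The members lie together on chromosome 11, in a stretch of 335.378 kb that also holds the pseudogene Slfn10-ps and Slfn14 (GENCODE M21 on GRCm38, the build mm10). Promoter windows of RefSeq on GRCm38.p6, from 250 bases before to 50 bases after the start site, were found for 7 of 7 members. These were searched on both strands for letters of 4 motifs. An interferon-stimulated response element-like motif (GAAA and again GAAA after any 2 bases) was present in Slfn5, Slfn8 and Slfn9, 3 of 7 members, and in 3.44% of all 32851 promoter windows. An ETS-like motif (ACTTCCTG), whose letters were chosen after the sequences had been viewed, was present in Slfn1, Slfn2, Slfn3 and Slfn4, 4 of 7 members, and in 3.33% of all windows. Because the ETS-like letters were chosen from these sequences, their presence in the short and intermediate forms alone restates that choice. No member held exact matches to both motifs, and near matches were not counted. A GAS-like motif (TTCNNNGAA; 8.30% of all windows) and an NF-kB-like motif (GGGA, any base, TTTCC; 0.411%) had no match in a member. The whole Slfn4 window, the gene with the largest change, and 100 bases of each other member are printed 5′ to 3′ to show where the letters stand. Capitals mark the motif, and a match describes the letters alone.
Slfn4, plus strand, chr11:83174936-83175235: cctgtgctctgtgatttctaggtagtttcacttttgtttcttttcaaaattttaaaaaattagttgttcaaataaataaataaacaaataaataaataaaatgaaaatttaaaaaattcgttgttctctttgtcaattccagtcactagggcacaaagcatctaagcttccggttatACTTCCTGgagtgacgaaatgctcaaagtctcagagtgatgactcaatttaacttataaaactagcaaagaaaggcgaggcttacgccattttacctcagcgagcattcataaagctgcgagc
Slfn1, plus strand, chr11:83116720-83116819: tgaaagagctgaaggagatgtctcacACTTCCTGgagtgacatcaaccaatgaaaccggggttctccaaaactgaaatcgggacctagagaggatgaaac
Slfn2, plus strand, chr11:83065012-83065111: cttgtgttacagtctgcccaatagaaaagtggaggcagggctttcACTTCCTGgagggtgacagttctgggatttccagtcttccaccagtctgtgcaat
Slfn3, plus strand, chr11:83191230-83191329: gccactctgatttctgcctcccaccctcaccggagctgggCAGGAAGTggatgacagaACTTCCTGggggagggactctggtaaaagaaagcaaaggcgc
Slfn5, plus strand, chr11:82951902-82952001: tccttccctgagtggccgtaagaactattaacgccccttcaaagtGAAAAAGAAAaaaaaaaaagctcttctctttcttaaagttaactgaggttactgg
Slfn8, minus strand, chr11:83020811-83020910: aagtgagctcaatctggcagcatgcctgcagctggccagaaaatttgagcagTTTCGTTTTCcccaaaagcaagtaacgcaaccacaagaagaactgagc
Slfn9, minus strand, chr11:82991831-82991930: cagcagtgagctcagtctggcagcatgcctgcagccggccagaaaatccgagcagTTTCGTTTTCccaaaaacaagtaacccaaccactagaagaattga

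The ETS-like letters began 73 bases before the start site in Slfn4 and 74 in Slfn1, and these promoters shared an unbroken run of 15 bases there. In Slfn2 they began 55 bases before the start, and Slfn3 held them once on each strand, at 60 and 42 bases before it. RefSeq gives Slfn8 more than 1 start site, and the response element-like letters began 48 bases before the one printed and 136 before another. In Slfn9 they began 45 bases before the start. Both stood on the opposite strand, and these neighboring genes shared a run of 20 bases nearby. In Slfn5 they stood farther out, 155 bases before the start, beside a run of A.

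The libraries held between 5759775 and 8598108 counts on genes. Of the 14458 genes that passed the filter on low counts, all 7 members were among them. Adipocyte markers summed to between 1827 and 22987 CPM per library, where CPM are counts scaled to a common normalized library size, the lowest in tumor-associated IWAT of obese mouse 4. Control IWAT of obese mice 1 and 3 stood apart by lymphocyte markers: all 7 B cell and all 10 T cell markers in the table were higher in both than in each of the other 4 obese control libraries. Their B cell markers summed to 622 and 678 CPM against 4.30 to 17.6, and their T cell markers to 372 and 375 against 11.7 to 16.1; the B cell markers Cd79a and Ms4a1 were at 0 in at least 1 of the other 4. Smaller excesses stood elsewhere. Tumor-associated IWAT of obese mouse 3 held 161 CPM of B cell and 108 CPM of T cell markers. The rest of its group held 9.25 to 12.3 and 21.1 to 59.3 CPM. Control IWAT of lean mouse 2 held 77.5 and 69.8 CPM, against 3.37 to 12.5 and 13.3 to 39.7 in the other lean control pads. Both libraries stayed in the fits without the control pads of obese mice 1 and 3. Skeletal muscle markers summed to 1977 CPM in control IWAT of obese mouse 1. Fitted differences of a member that the control libraries of obese mice 1 and 3 moved by over 1.5 times or across the threshold are given with and without them.

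Slfn4, an intermediate form best known from macrophages and other myeloid cells, was low in every control pad and high beside most tumors. Lean control IWAT held 2.09, 3.15, 2.30, 2.11 and 5.93 CPM in mice 0, 2, 3, 6 and 9, from 12 to 35 counts. Tumor-associated IWAT of the same mice held 47.1, 99.8, 40.3, 16.0 and 6.80 CPM. All 5 tumor-associated values lay above all 5 control values, but the pads of mouse 9 hardly differed. In obese mice, control IWAT ranged from 2.30 to 12.3 CPM with a median of 3.35, and tumor-associated IWAT from 52.6 to 246 with a median of 165. These groups were far apart, and the lowest obese tumor-associated library held over 400 counts of Slfn4, 408 in all.

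The fitted tumor change of Slfn4 was 3.76 ± 0.64 (SE) on the log2 scale in lean and 5.01 ± 0.58 in obese mice, 13.6-fold and 32.1-fold. Among 14458 genes ordered by fitted change it stood at rank 3 in lean mice and rank 1 in obese mice. Slfn4 was chosen for this rise, so the ranks restate the choice. Within single mice the difference between pads, on log2 CPM with a prior count of 2, ran from 0.19 (mouse 9) to 4.86 (mouse 2) in lean mice and from 3.93 to 6.57 in obese mice. With single libraries left out, the lean change lay between 3.14 and 4.12, and the obese change between 4.83 and 5.53.

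**Figure D1:**
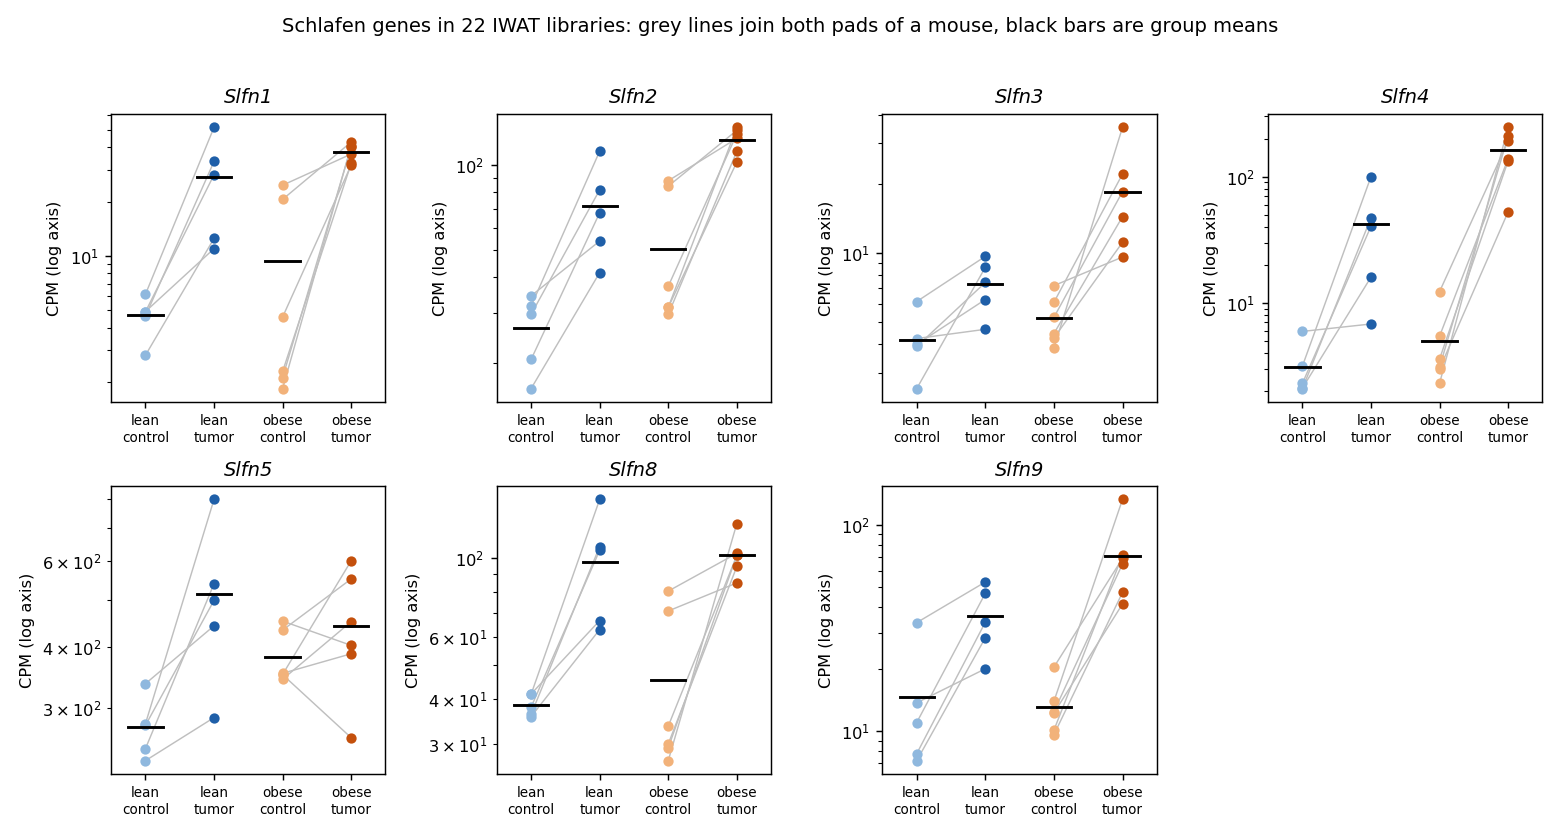
CPM on a log axis for the 7 Schlafen genes by diet and pad (5 lean and 6 obese mice, both pads each); gray lines join the pads of a mouse and black bars are group means. Slfn4 ran from at most 12.3 CPM in control pads to 52.6 CPM or more in every obese tumor-associated pad, whereas Slfn5 overlapped between the pads of obese mice.

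The short forms Slfn1 and Slfn2 rose beside the tumor in lean and obese mice. Slfn1, linked to growth arrest of T cells, was at 4.64, 6.12, 4.90, 2.82 and 4.92 CPM in control and at 33.3, 51.4, 28.1, 12.5 and 11.0 CPM in tumor-associated IWAT of lean mice 0, 2, 3, 6 and 9. Obese control IWAT ranged from 1.84 to 24.6 CPM with a median of 3.44, and obese tumor-associated IWAT from 31.8 to 42.7 with a median of 38.4. The groups did not overlap in lean or in obese mice. Slfn1 rose by 2.54 ± 0.62 (SE, log2) in lean mice (adjusted p = 0.0227, edgeR quasi-likelihood test) and 1.99 ± 0.53 in obese mice (adjusted p = 0.00401). Without control IWAT of obese mice 1 and 3, which held 20.5 and 24.6 CPM, the obese change was 3.74 ± 0.41 (adjusted p = 8.96e-06).

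Slfn2, which keeps T cells and monocytes quiescent, was at 29.6, 31.7, 20.5, 16.2 and 34.4 CPM in control and at 81.5, 112, 67.7, 41.6 and 53.8 CPM in tumor-associated IWAT of lean mice. In obese mice the control pads ranged from 29.6 to 87.8 CPM with a median of 34.3 and the tumor-associated pads from 102 to 135 with a median of 126. The pads did not overlap within either diet. Slfn2 rose by 1.42 ± 0.32 in lean mice (adjusted p = 0.0149, edgeR) and 1.28 ± 0.29 in obese mice (adjusted p = 0.00107), or 1.91 ± 0.24 (adjusted p = 1.83e-05) in obese mice without the control pads of mice 1 and 3.

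The intermediate form Slfn3, known from T cells, rose beside the tumor in obese mice. Lean control IWAT held 2.55, 6.12, 3.98, 4.22 and 3.90 CPM and lean tumor-associated IWAT 8.63, 9.64, 6.25, 4.63 and 7.41 CPM, which overlapped. Obese control IWAT ranged from 3.84 to 7.18 CPM with a median of 4.83, and obese tumor-associated IWAT from 9.57 to 35.2 with a median of 16.4, without overlap. The log2 difference was 0.82 ± 0.32 in lean mice (adjusted p = 0.181, edgeR), which was not called, and the change in obese mice was 1.83 ± 0.29 (adjusted p = 5.72e-05).

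The long forms behaved unlike each other. Slfn8, studied mainly in T cells, was at 36.2, 41.3, 38.0, 35.7 and 41.4 CPM in lean control and at 108, 146, 105, 62.8 and 66.6 CPM in lean tumor-associated IWAT. In obese mice it ranged from 26.9 to 80.6 CPM (median 31.8) in control and from 85.0 to 125 CPM (median 102) in tumor-associated IWAT. Slfn8 rose by 1.34 ± 0.28 in lean (adjusted p = 0.00861, edgeR) and 1.17 ± 0.25 in obese mice (adjusted p = 0.000875), with no overlap in either. Without the control pads of obese mice 1 and 3 the obese change was 1.75 ± 0.19 (adjusted p = 8.39e-06).

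Slfn9 was at 7.78, 11.0, 7.20, 33.6 and 13.7 CPM in control and at 33.8, 46.6, 28.4, 52.9 and 20.1 CPM in tumor-associated IWAT of lean mice 0, 2, 3, 6 and 9. Mouse 6 was highest in both pads, so the lean groups overlapped although Slfn9 was higher beside the tumor in 5 of 5 mice. In obese mice the control pads ranged from 9.62 to 20.5 CPM with a median of 12.4 and the tumor-associated pads from 41.4 to 133 with a median of 66.8, without overlap. The change in obese mice was 2.43 ± 0.36 (adjusted p = 3.68e-05, edgeR). In lean mice it was 1.32 ± 0.39 (adjusted p = 0.0582), and 1.46 with adjusted p = 0.0150 with the mouse as a block. Leaving out control IWAT of lean mouse 6 gave 1.88 (adjusted p = 0.00613), and leaving out tumor-associated IWAT of lean mouse 9 or obese mouse 4 gave adjusted p = 0.0479 and 0.0308.

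Slfn5, an interferon-induced nuclear member, had the highest counts of the family. Lean control IWAT held 248, 279, 277, 235 and 337 CPM and lean tumor-associated IWAT 538, 800, 498, 287 and 442 CPM. Tumor-associated IWAT of mouse 6 fell within the control range, and the other 4 lay above it. In obese mice control IWAT ranged from 344 to 452 CPM with a median of 353 and tumor-associated IWAT from 261 to 600 with a median of 427. The log2 change was 0.90 ± 0.22 in lean mice (adjusted p = 0.0225, edgeR). In obese mice the difference was 0.22 ± 0.20 (adjusted p = 0.366), with a 95% interval from -0.17 to 0.60, and Slfn5 was higher beside the tumor in 4 of 6 mice. Without the control pads of obese mice 1 and 3 the obese difference was 0.14 ± 0.23 (adjusted p = 0.619, edgeR). Its exons share 559 bases, 8.84% of their length, with the antisense gene Slfn5os, and the strand setting of the counting is not stated, so reads there cannot be assigned to either gene.

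In all, 4 of the 6 paralogs were called higher beside the tumor in lean mice, where 3.27% of all tested genes were called higher, and 5 of 6 in obese mice, where 26.8% were. The median log2 change of the 6 was 1.33 in lean and 1.56 in obese mice, against 0.01 and -0.02 over all tested genes. Groups without overlap, tumor-associated above control, were found for 3 of 6 paralogs in lean mice (5.33% of all genes) and 5 of 6 in obese mice (9.95%). The obese calls were kept without any single library and without the control libraries of obese mice 1 and 3. In lean mice Slfn8 kept its call without any single library, and other calls were lost while the fold changes stayed similar. Slfn1 (2.16 to 2.55 in these fits) lost its call without tumor-associated IWAT of lean mouse 0 or 2 (adjusted p = 0.0648 and 0.103) or control IWAT of lean mouse 3 or 6 (0.0647 and 0.0753). Slfn2 (1.19 to 1.35) lost it without the tumor-associated pad of mouse 2 (0.0733) or control IWAT of mouse 3 or 6 (0.0529 and 0.0543). Slfn5 (0.67 to 0.90) lost it without the tumor-associated pad of mouse 0 or 2 (0.0673 and 0.118) or control IWAT of mouse 0, 2, 3 or 6 (0.0507, 0.0505, 0.0606 and 0.0749). The number called in lean mice was 1 without the tumor-associated pad of mouse 2 or the control pad of mouse 3, and 2 without the tumor-associated pad of mouse 0 or the control pad of mouse 6. Over all genes, the lean calls in either direction also fell, from 605 to 183, 255, 228 and 252 in these 4 fits.

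**Figure D2:**
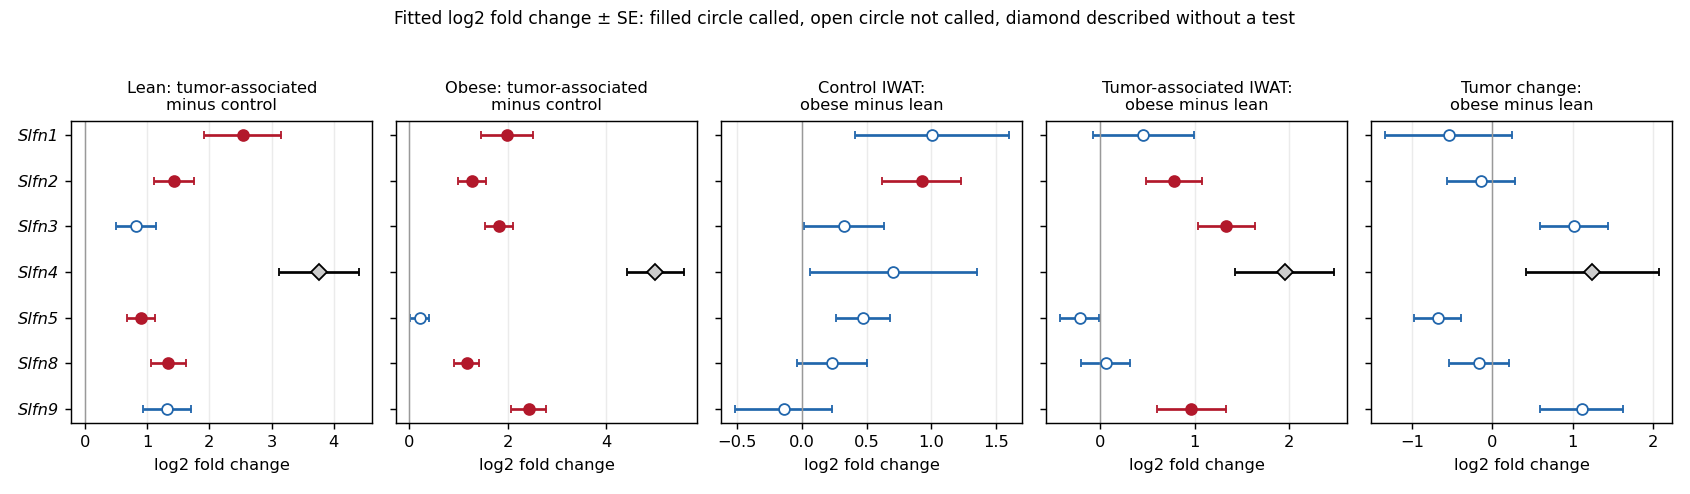
Fitted log2 fold change with its SE for each Schlafen gene in 5 comparisons of the 22 libraries; filled circles passed an adjusted p of 0.05, open circles did not, and diamonds mark Slfn4 where it is described without a test. Slfn4 differed by 3.76 between the pads of lean and by 5.01 between those of obese mice, and Slfn5 alone among the paralogs was not called in obese mice.

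Beside the family, 31 of 34 interferon response genes were called higher in lean and 33 of 34 in obese tumor-associated IWAT, with median log2 changes of 1.51 and 1.56, and none was called lower. The shares called higher over all tested genes were 3.27% and 26.8%. The largest rises were those of the antiviral oligoadenylate synthetases Oas3 (3.06 ± 0.38 in lean, 3.23 ± 0.34 in obese; adjusted p = 8.58e-05 and 1.45e-06, edgeR) and Oas1g (2.57 ± 0.35 and 2.80 ± 0.31; adjusted p = 0.000238 and 2.95e-06). The genes not called in lean mice were Ifi27l2a, Isg20 and Rsad2, and in obese mice Ifi27l2a. Of 11 interferon ligand, receptor and receptor kinase genes, 7 passed the filter. Ifngr2, a chain of the interferon-gamma receptor, was called higher in lean (0.59 ± 0.12, adjusted p = 0.00708, edgeR) and obese mice (0.26 ± 0.11, 0.0443), and Ifngr1, its partner chain, was called lower in obese mice (-0.59 ± 0.15, adjusted p = 0.00298). Ifi27l2a in lean mice, Rsad2, Ifngr1 and Ifngr2 were named after their values were seen.

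Macrophage and monocyte markers were also higher beside the tumor: 9 of 13 and 5 of 8 were called higher in lean mice, and 11 of 13 and 7 of 8 in obese mice. Of all tested genes, 3.27% were called higher in lean and 26.8% in obese mice. Macrophage markers summed to 894 to 1834 CPM in control and 1959 to 4218 CPM in tumor-associated pads of lean mice, and to 1413 to 1877 and 1954 to 5586 CPM in those of obese mice. Fibroblast markers summed to 4630 to 6909 CPM in control and 10065 to 15278 CPM in tumor-associated pads of lean mice. In obese mice they summed to 3643 to 8458 and 4025 to 13994 CPM, and were lower beside the tumor only in mouse 4. The summed adipocyte markers were lower beside the tumor in every mouse, with log2 differences from -0.83 to -0.16 in lean and from -3.47 to -0.18 in obese mice. The part of these cell types in the Schlafen changes was not tested. For Slfn5 the log2 difference between pads of a mouse was smaller than that of the summed interferon response, macrophage and monocyte lists in 5 of 5 lean and 6 of 6 obese mice. T cell and B cell markers went in both directions within each diet, and none of their genes was called higher beside the tumor. The summed B cell markers differed between pads by -5.79 and -1.95 (log2) in obese mice 1 and 3 and by -0.93 to 1.35 in the other 4, and the T cell markers by -3.81 and -1.80 against 0.63 to 2.13.

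**Figure D3:**
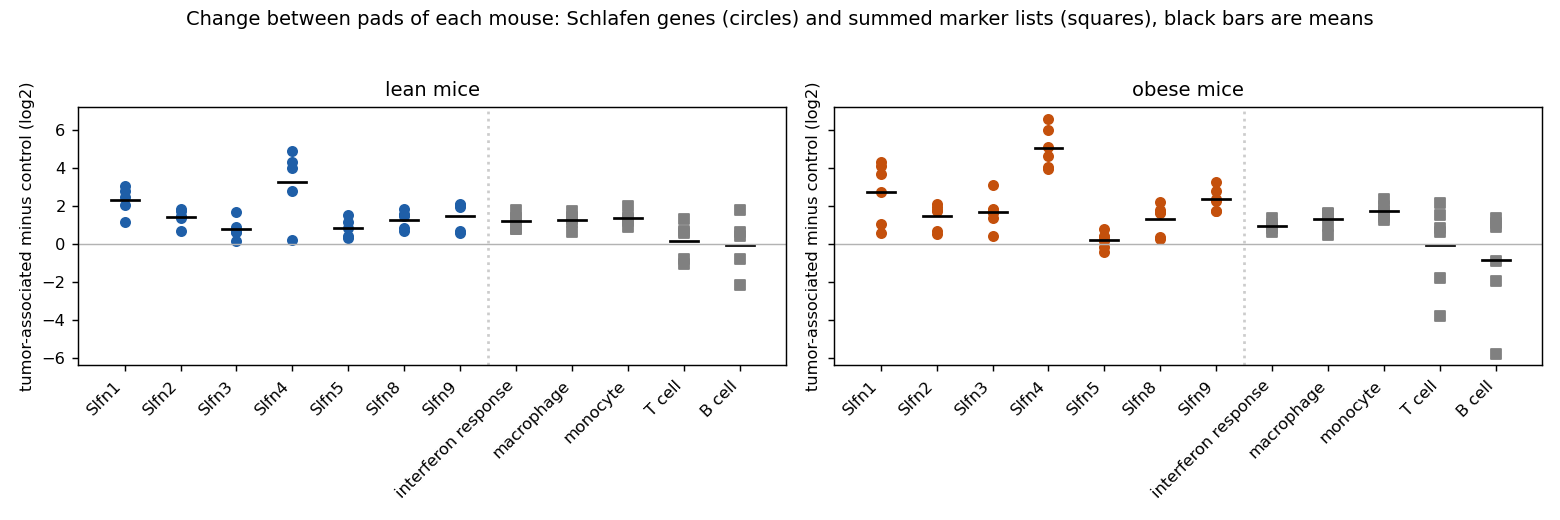
Difference in log2 expression between the tumor-associated and control pad of each mouse for the 7 Schlafen genes (circles) and for 5 summed marker lists (squares), lean mice (n = 5) left and obese mice (n = 6) right; black bars are means. Slfn5 lay below the interferon response, macrophage and monocyte lists in every mouse, and T and B cell lists were spread on both sides of 0.

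Between diets, 1 of the 6 paralogs differed in control IWAT, where 9.54% of all tested genes were called higher in obese mice. This was Slfn2, with 26.5 ± 7.76 CPM in lean (SD, n = 5) and 50.2 ± 27.8 CPM in obese control IWAT (n = 6), a log2 difference of 0.92 ± 0.31 (adjusted p = 0.0433, edgeR). The obese mean was set by mice 1 and 3, at 87.8 and 84.0 CPM, while the other 4 obese control pads lay between 29.6 and 37.2 CPM. Without these libraries the difference was 0.28 (adjusted p = 0.490). It also missed the threshold with 9 of the 22 libraries left out in turn, among them obese control mouse 1 (0.68, adjusted p = 0.126), obese control mouse 3 (0.70, 0.125) and the lean control pads of mice 0, 2, 3 and 6 (0.0672, 0.0568, 0.104 and 0.118), lean tumor-associated mice 0 and 3 (0.0537 and 0.0520) and obese tumor-associated mouse 0 (0.0512).

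Slfn1 and Slfn8 showed the same split. In control IWAT of obese mice 1 and 3, Slfn1 stood at 20.5 and 24.6 CPM against 1.84 to 4.59 in the other 4, and Slfn8 at 80.6 and 70.8 against 26.9 to 33.6. The same libraries held the high B and T cell sums, and the part of these cells in the Slfn1, Slfn2 and Slfn8 values was not tested. Slfn3, Slfn4, Slfn5 and Slfn9 in these libraries lay within or close to the range of the other 4. The diet difference of Slfn1 in control IWAT was 1.00 ± 0.59 (adjusted p = 0.261, edgeR) with them and -0.77 without (adjusted p = 0.253), and that of Slfn8 0.23 ± 0.27 with and -0.37 without (adjusted p = 0.607 and 0.216). Their rises beside the tumor in obese mice stayed called without these libraries and were larger, as given above.

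**Figure D4:**
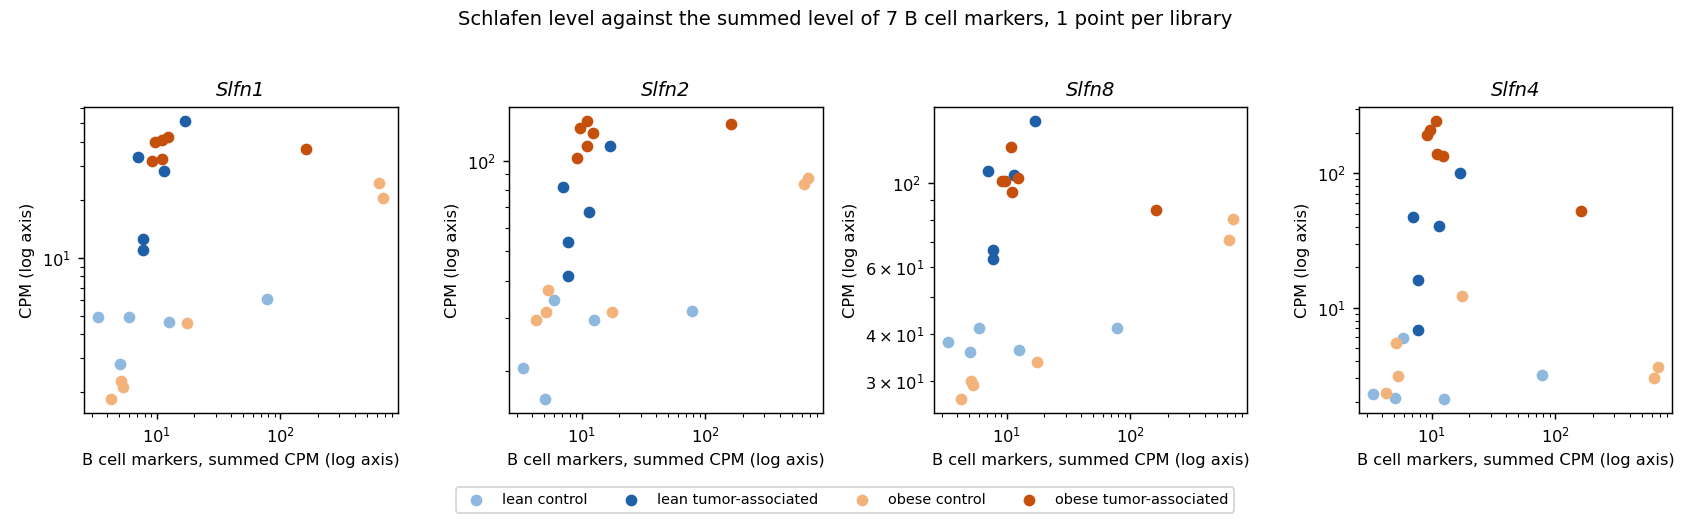
CPM of Slfn1, Slfn2, Slfn8 and Slfn4 (log axis) against the summed CPM of 7 B cell markers (log axis), 1 point per library, colored by group. Control IWAT of obese mice 1 and 3, at 678 and 622 CPM of B cell markers, lay above the other obese control pads for Slfn1, Slfn2 and Slfn8, whereas their Slfn4 (3.59 and 3.00 CPM) lay within the range of the others.

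Slfn5 was the only paralog whose control pads did not overlap between diets, with 235 to 337 CPM in lean and 344 to 452 CPM in obese mice, where 7.44% of all genes were higher in this way. Its log2 difference of 0.47 ± 0.21 missed the threshold (adjusted p = 0.128, edgeR), and passed it when the control pads were fitted alone (adjusted p = 0.00833). In that fit Slfn2 was not called (0.94, adjusted p = 0.0789), so the count of 1 paralog stood for another gene. Slfn4 did not pass in control IWAT (0.71 ± 0.65, adjusted p = 0.502). Slfn3 and Slfn9 differed by 0.32 ± 0.31 and -0.14 ± 0.38 (adjusted p = 0.522 and 0.837, edgeR). Without the control pads of obese mice 1 and 3, Slfn9 differed by -0.034 ± 0.43 (adjusted p = 0.975, edgeR).

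In tumor-associated IWAT, 3 of the 6 paralogs passed with higher levels under HFD, as did 24.7% of all tested genes. Tumors were larger under HFD, so diet and tumor size cannot be told apart in this comparison. Slfn3 was at 7.31 ± 1.97 CPM in lean (SD, n = 5) and 18.4 ± 9.41 CPM in obese mice (n = 6), a log2 difference of 1.33 ± 0.30 (adjusted p = 0.00125, edgeR), which was kept without any single library. Slfn9 was at 36.4 ± 13.4 and 71.0 ± 32.7 CPM (0.96 ± 0.36, adjusted p = 0.0332), and Slfn2 at 71.2 ± 27.1 and 122 ± 12.9 CPM (0.78 ± 0.30, adjusted p = 0.0368). All 3 groups of values overlapped between diets. Slfn9 lost its call without the tumor-associated pads of lean mouse 0, 3 or 9 (adjusted p = 0.0667, 0.0764 and 0.0927) or obese mouse 0 or 4 (0.0510 and 0.108), and Slfn2 without those of lean mouse 3, 6 or 9 (0.0684, 0.10 and 0.0871) or obese mouse 0, 3 or 8 (0.0561, 0.0551 and 0.0569). The number called was 1 without the tumor-associated pad of obese mouse 0 or of lean mouse 3 or 9. Under upper-quartile normalization it was also 1, and it was 2 without both pads of lean mouse 6, where Slfn2 was lost (0.0931), or of obese mouse 4, where Slfn9 was lost (0.119).

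The remaining paralogs did not pass there: Slfn1 differed by 0.46 ± 0.53, Slfn8 by 0.06 ± 0.26 and Slfn5 by -0.21 ± 0.21 (adjusted p = 0.497, 0.863 and 0.409, edgeR). The 95% interval for Slfn8, from -0.45 to 0.57, leaves room for a moderate difference either way, and its estimate turned to -0.03 under upper-quartile normalization. Slfn4 was at 42.0 ± 36.4 CPM in lean and 162 ± 68.4 CPM in obese tumor-associated IWAT, a log2 difference of 1.95 ± 0.52, and the groups overlapped. The summed interferon response list overlapped as well, at 2748 to 5899 CPM in lean and 3555 to 4782 CPM in obese mice. Of its 34 genes, Bst2, Oas1a and Rsad2 were called higher and Irf9 lower in obese mice. These genes were named after their values were seen. Over all tested genes, 24.7% were called higher and 22.4% lower in this comparison, larger shares than in the list.

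Whether the tumor change itself differed between diets was tested as the obese minus the lean change. Here too, diet and tumor size cannot be told apart. None of the 6 paralogs passed the threshold in edgeR, against 4.92% of all genes, nor with DESeq2 or limma voom. That share, 711 genes, was set by single libraries: it was 1 gene without the tumor-associated pad of lean mouse 0 or obese mouse 0, 2 without that of lean mouse 9 or the control pad of obese mouse 0 or 4, and 3568 without that of obese mouse 1. Slfn3 (1.01 ± 0.43, adjusted p = 0.110), Slfn9 (1.11 ± 0.52, 0.142) and Slfn5 (-0.68 ± 0.29, 0.115) were the 3 with an unadjusted p under 0.05 (0.0271, 0.0445 and 0.0298). Slfn3 passed without the tumor-associated pad of obese mouse 1 (1.16, adjusted p = 0.0416). Without both pads of obese mice 1 and 3, Slfn3 (1.38, adjusted p = 0.0176) and Slfn5 (-0.89, adjusted p = 0.0458) passed, an alternative chosen after the data were seen. That fit called 4951 genes over all genes, against 711 in the main fit. For Slfn1, Slfn2 and Slfn8 the differences were -0.55 ± 0.79, -0.14 ± 0.42 and -0.17 ± 0.37, with 95% intervals from -2.10 to 1.00, from -0.97 to 0.69 and from -0.90 to 0.56. Their sign turned without the control libraries of obese mice 1 and 3 (1.23, 0.50 and 0.43). The Slfn4 value was 1.24 ± 0.83, without a test.

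Levels were compared between members per kb of exon (CPM per kb). In lean control IWAT, Slfn5 led with 43.5 ± 6.21 (SD, n = 5), ahead of Slfn2 (15.9 ± 4.66) and Slfn8 (9.41 ± 0.66) in every library. Slfn1 (2.51 ± 0.64) and Slfn9 (2.46 ± 1.83), and Slfn9 and Slfn3 (1.22 ± 0.37), were closer than their spread. Slfn4 was last at 0.79 ± 0.41, below Slfn3 in 4 of 5 libraries. In obese tumor-associated IWAT Slfn2 (73.5 ± 7.76, n = 6) and Slfn5 (69.9 ± 19.2) were closer than their spread, and Slfn4 (40.9 ± 17.3) came next, within the spread of Slfn8 (24.9 ± 3.22) although above it in 5 of 6 libraries. Slfn1 (20.1 ± 2.42), Slfn9 (11.9 ± 5.48) and Slfn3 (5.41 ± 2.76) followed.

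The order in between kept Slfn5, Slfn2 and Slfn8 in front. In lean tumor-associated IWAT, Slfn5 stood at 81.1 ± 29.5 CPM per kb and Slfn4 at 10.6 ± 9.17, within the spread of Slfn1 (14.6 ± 8.92) and Slfn9 (6.09 ± 2.24). In obese control IWAT, Slfn5 stood at 60.2 ± 7.62 and Slfn4 at 1.25 ± 0.94, within the spread of Slfn3 (1.51 ± 0.37). As a share of the summed family level per kb, Slfn4 went from 1.00% ± 0.36 in control to 5.09% ± 2.72 in tumor-associated IWAT of lean mice, and from 1.21% ± 1.07 to 16.4% ± 6.70 in obese mice. The share of Slfn5 was 57.4% ± 2.82 and 45.3% ± 4.44 in the pads of lean and 56.3% ± 13.9 and 28.4% ± 7.45 in those of obese mice. The family sum was 75.8 ± 10.6 and 181 ± 72.0 CPM per kb in the pads of lean and 111 ± 24.4 and 247 ± 19.2 in those of obese mice.

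**Figure D5:**
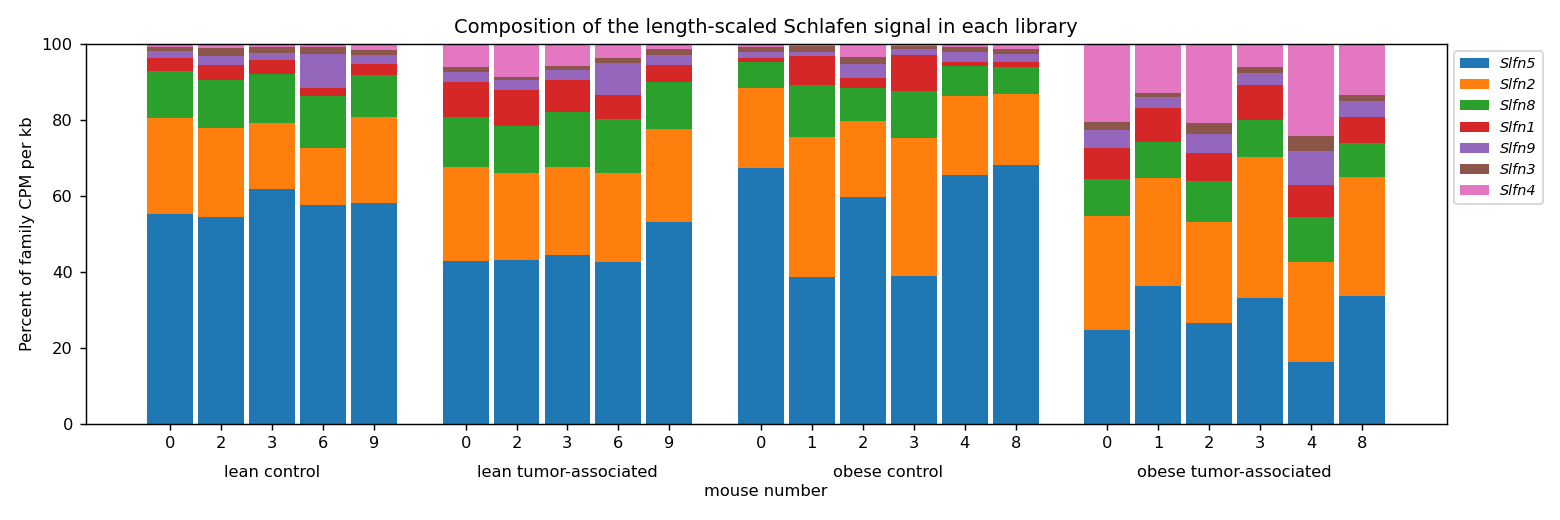
Share of each Schlafen gene in the summed family CPM per kb of exon, 1 bar per library, grouped by diet and pad, with the mouse number under each bar. The Slfn4 share was 0.54% to 3.30% in control pads and 6.18% to 24.3% in obese tumor-associated pads, and Slfn5 shrank to 16.2% in obese mouse 4.

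Members differed in the genes that varied most like them over the 22 libraries, by Pearson's r of log2 CPM, given first over all libraries and then after removing group means. The libraries share groups and depth, so r is a description. Slfn4 was most like Oas3 (0.98 and 0.93), Oasl1 (0.97 and 0.87) and Oas1a (0.97 and 0.89), oligoadenylate synthetase family genes, then the galactosyltransferase B4galt5 (0.97 and 0.79) and the IgG receptor Fcgr1 (0.96 and 0.70). Slfn1 was most like the interferon-inducible Pyhin1 (0.97 and 0.97), the C-type lectin Clec4n and Ly86. Slfn2 was most like Ms4a6b (0.97 and 0.95), the nucleotide phosphohydrolase Samhd1 and Plek. Slfn8 was most like Pydc4 (0.97 and 0.90), Trim30a and Trim30d.

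Slfn9 was most like thymidylate synthase Tyms (0.96 and 0.85), Timeless (0.96 and 0.86) and the replicative helicase subunit Mcm6 (0.94 and 0.85). Slfn5 was most like complement factor B, Cfb (0.94 and 0.91), Vwa5a and Man1c1, and Slfn3 was most like Wsb1, Gnai3 and Galnt7 (0.94 and 0.76, 0.94 and 0.79, and 0.94 and 0.85).

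Among the members, after removing group means, Slfn1 and Slfn8 varied most alike (r = 0.95, 22 libraries), followed by Slfn1 and Slfn2 (0.89) and Slfn2 and Slfn8 (0.86). These 3 also followed the summed T cell markers (0.83, 0.79 and 0.77 for Slfn1, Slfn2 and Slfn8), and the obese control libraries of mice 1 and 3 are among the points. In the same order, r was 0.80, 0.75 and 0.68 with the B cell list and 0.59, 0.75 and 0.50 with the monocyte list. Slfn4 followed the interferon response list (0.78) and had r = 0.11 with the macrophage list. Slfn5 had r = 0.82 with the macrophage list, and Slfn9 had r = -0.55 with it. With the monocyte list r was 0.66 for Slfn5 and -0.43 for Slfn9. With the adipocyte list r was 0.60 for Slfn5, -0.49 for Slfn9 and -0.62 for Slfn3, and it was negative for the other members. Tumor-associated IWAT of obese mouse 4 is among these points. In its group it held the highest Slfn9 and Slfn3 and the lowest Slfn5, macrophage, monocyte and adipocyte values. Lean mouse 6 held the highest Slfn9 and the lowest macrophage sum of the lean mice in both pads.

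Of the other Schlafen symbols in the table, Slfn10-ps was higher in obese tumor-associated than control IWAT (1.27 ± 0.22, adjusted p = 0.000112, edgeR) and higher in obese than lean tumor-associated IWAT (1.10 ± 0.23, adjusted p = 0.000654). Its lean tumor difference was 0.82 ± 0.24 (adjusted p = 0.0600). Slfn14, listed as Slfn14-ps, had at most 1 count in a library and Slfnl1, on chromosome 4, at most 7, and neither passed the filter. The paralogs are alike in sequence: of the 50-base stretches of a member's transcripts, from 0.606% (Slfn1) to 15.6% (Slfn3) occur in another gene, and of 100-base stretches at most 3.71% (Slfn9). Slfn8 and Slfn9 share theirs mostly with Slfn10-ps, and Slfn3 and Slfn4 with each other at 50 bases. Reads that could not be placed uniquely were not counted for any gene, so the levels of Slfn3, Slfn4, Slfn8 and Slfn9 are the less certain ones.

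Genes next to the cluster gave a local comparison. Of the 5 nearest protein-coding genes on each side, 7 were tested. In lean mice 1 was called higher and 0 lower, with log2 differences from -0.20 to 0.24, and in obese mice 2 were called higher and 5 lower, with differences from -1.93 to 1.12. Over all tested genes, 3.27% were called higher and 0.913% lower in lean mice, and 26.8% and 27.7% in obese mice. The Schlafen paralogs ranged from 0.82 to 2.54 in lean and from 0.22 to 2.43 in obese mice. This difference between cluster and neighbors was not tested.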

How the data were processed

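RNA from 22 IWAT libraries was depleted of ribosomal RNA and sequenced. The authors trimmed the reads with prinseq, aligned them to mm10 with STAR 2.4.0f, used HTSeq to count them for each gene symbol, and the deposited values are these raw counts, not normalized. The annotation and strand setting are not given in the sources used here. Rows of HTSeq totals that name no gene (5 rows) held 57.0% to 65.9% of the table and were left out, so that counts on genes were 5759775 to 8598108 per library.

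The quasi-likelihood test of edgeR 4.0.16 (R 4.3.3) was fitted to all 4 groups at once after TMM scaling and the default filter on low counts (14458 genes kept), with Benjamini-Hochberg adjustment over all genes tested and a threshold of 0.05. This main fit held no mouse block, so its p-values treat the pads of a mouse as independent. With 12 to 35 counts, low values such as those of Slfn4 in lean control IWAT are imprecise. Levels are CPM after TMM scaling; logarithms were taken with 2 as prior count. Exon lengths and positions come from GENCODE M21, promoters from RefSeq. The deposited labels name the mouse of each pad. Deviations from group means correlated between pads of a mouse by over 0.1 in 5 of 5 lean and 4 of 6 obese pairs (median 0.51 and 0.17), and pairing by mouse follows from the labels. Alternatives were upper-quartile normalization, no filter, at least 10 counts in every library, the compared groups alone, the mouse as a block, limma 3.58.1 voom with the mouse as a correlated block, DESeq2 1.42.0, each library left out, and 4 sets of libraries chosen after seeing the data. The fits were tested on simulated data. Members, lists, motifs and tests were chosen with earlier results of these data known. Genes named are the members, other Schlafen symbols, the 3 genes most like each member (5 for Slfn4), and the largest changes of the interferon list; exceptions are said to be so.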

Additional observations from a re-analysis of the deposited data

Results flagged for a closer look

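Of 42 sets of values, the CPM of each member in each of 4 groups and its difference between pads within each diet, 4 held a library far from the rest of its group by Dixon's criterion, which chance exceeds in about 1 of 20 sets. Slfn4 was highest in control IWAT of lean mouse 9, at 5.93 CPM against 3.15 in the next library; the tumor-associated pad of this mouse held the lowest Slfn4 of its group. Slfn4 was also highest in control IWAT of obese mouse 2, at 12.3 CPM against 5.44. Slfn9 was highest in control IWAT of lean mouse 6, at 33.6 CPM against 13.7, and this mouse also had the highest Slfn9 in lean tumor-associated IWAT. Slfn9 in tumor-associated IWAT of obese mouse 4 reached 133 CPM against 71.2, in the library with the lowest Slfn5, macrophage and adipocyte values of its group.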

How the results depend on the processing

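The number of paralogs called beside the tumor was 5 in obese mice under every alternative run. In lean mice it was 4 or 5 under other tools, filters and normalizations, and 1 to 5 with single libraries left out. In control IWAT between diets it was 1 (Slfn2, or Slfn5 when the control pads were fitted alone), and 0 with upper-quartile normalization, no filter, limma voom, without the control or both pads of obese mice 1 and 3, and without lean mouse 6, and 0 to 1 with single libraries left out. In tumor-associated IWAT it was 3, and 1 with upper-quartile normalization, 2 without lean mouse 6 or obese mouse 4, and 1 to 3 with single libraries left out. For the obese minus lean change it was 0, 2 without obese mice 1 and 3, and 0 to 1 with single libraries left out. Over all genes, the obese minus lean calls went from 711 to 4951 without both pads of obese mice 1 and 3. Of all tested genes, 17.1% were called in either direction between diets in control IWAT and 47% in tumor-associated IWAT. For the obese minus lean change this share was 4.92%. The number of the 34 interferon response genes called between diets in control IWAT was 2. It was 1 without the control or both pads of obese mice 1 and 3, or without lean mouse 6. With single libraries left out it was 1 to 2. In tumor-associated IWAT it was 4, and 1 in the groups alone, 7 with voom, 1 without obese mouse 4 and 1 to 10 with single libraries left out. For the obese minus lean change it was 0, and 1 with voom, DESeq2 or without obese mice 1 and 3 (0 to 1 with single libraries left out). The cause of these shifts was not tested.

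Signs turned only for differences that were not called. Without both pads of obese mice 1 and 3, the obese Slfn5 change was -0.0051, and the control diet differences of Slfn1 and Slfn8 were -0.76 and -0.36 (-0.77 and -0.37 without their control pads alone). Slfn9 in control IWAT turned to 0.12 with voom and 0.41 without lean mouse 6 (-0.32 to 0.41 with single libraries left out), and Slfn8 from -0.023 to 0.34 with single libraries left out. Slfn8 in tumor-associated IWAT turned to -0.034 with upper quartiles, -0.064 without lean mouse 6 and -0.010 without obese mouse 4 (-0.063 to 0.25 with single libraries left out). The obese minus lean differences of Slfn1, Slfn2 and Slfn8 turned to 1.23, 0.50 and 0.43 without the control pads of obese mice 1 and 3, to 1.18, 0.46 and 0.48 without both pads, and lay between -0.76 and 0.050, -0.29 and 0.099, and -0.29 and 0.082 with single libraries left out.

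With the mouse as a block, the call of Slfn9 in lean mice was gained, and the block in edgeR changed no other call of a paralog. The obese minus lean differences of Slfn1, Slfn2 and Slfn8 with the block were 0.23, 0.036 and 0.031 in edgeR and 0.42, 0.050 and 0.029 in voom. For control IWAT against diet the mouse block could be fitted only in voom, since diet does not vary within a mouse; there Slfn2 was not called (0.81, adjusted p = 0.0887, limma voom). At 12 to 35 counts per library, small differences of Slfn4 from lean control IWAT were not detectable at this depth.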
